A study of Triticum aestivum with 8 samples.

Results

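Crown tissue of a synthetic hexaploid wheat line after 6 weeks at 4 °C was set against crown tissue of the same line grown at 24 °C, with 4 of the study's 8 arrays, 2 per group. The cold plants were first grown for 3 weeks at 24 °C and then moved to 4 °C, and the 24 °C plants were sampled at 3 weeks, so the cold crowns also came from older plants. A synthetic hexaploid is made by crossing relatives of the ancestors of bread wheat and doubling the chromosomes of the hybrid; the labels name neither the line nor its parents. The study's other 4 arrays carry leaf RNA, after 12 weeks at 4 °C and at 24 °C, and are used below only to set the crown changes beside those of another tissue. The labels speak of independent experiments but do not say how many plants made up a sample. Of the 37826 wheat probes on each array, 32204 were tested in crown, namely those with a signal well above background on each array of 1 crown group or of both.

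The crown is the short compressed stem at the soil surface that carries the shoot apical meristem, from which leaves, tillers and finally the ear are formed. In winter cereals it is the organ that must survive freezing for the plant to regrow. Long growth at low, non-freezing temperature does 2 things to it: it raises freezing tolerance (cold acclimation), with the accumulation of dehydrin and COR proteins under the control of CBF/DREB transcription factors, and it moves the meristem towards flowering (vernalization), in which the MADS-box gene VRN1 rises. None of the vernalization genes listed for the analysis could be looked up, because the files name nearly every probe by an EST contig or clone without pairing these names to genes. Probes are therefore named below as the files name them, and a role is given only where a probe carries a gene symbol.

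Levels are log2 signals relative to the 75th percentile of the array's wheat probes, so that 0 is a probe as bright as that percentile and a step of 1 is 2-fold. On the cold crown arrays 85.6% and 84.9% of probes were well above background, against 75.1% and 75.3% on the 24 °C crown arrays. The detection limit, taken as an array's lowest well-above-background signal, was -8.47 and -8.38 on the cold arrays and -6.09 and -6.08 on the 24 °C arrays, so a transcript could be followed further down in the cold samples. No probe was saturated. The median difference between replicates was 0.067 (cold) and 0.071 (24 °C) on the log2 scale, and the arrays correlated across probes at r = 0.997 between the cold replicates, at 0.992 between the 24 °C replicates and at 0.915 to 0.919 between the groups. The free-text description of the 24 °C samples speaks of leaves whereas their titles and tissue entries say crown; they correlated with the 24 °C leaf arrays at 0.774 to 0.776. No leaf, meristem or root marker listed for the analysis has a probe named by its symbol, so the tissue could not be checked against markers.

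A large share of the crown transcriptome differed after the cold. Of the 32204 probes tested, 11696 (36.3%) changed by at least 2-fold with an adjusted p under 0.05, 6565 of them higher in the cold (20.4%) and 5131 lower (15.9%); the test was limma's moderated test with Benjamini-Hochberg adjustment, as for every adjusted p below. Over all tested probes the median change was 0.17. In bulk tissue such as this, fewer cells of a type and less RNA per cell cannot be told apart. On this scale, and among probes measured in both groups, the rises were mostly modest and the falls ran deeper. Among the 27570 probes that all 4 crown arrays showed well above background, where both levels were measured, 3893 rose and 2648 fell between 2-fold and 4-fold, but 64 rose and 495 fell by 16-fold or more. The 64 strong rises had a median level of 1.77 in the cold and -3.10 at 24 °C, and the 495 strong falls a median of -4.69 in the cold and 1.05 at 24 °C, so the strong falls were mostly of transcripts that had been bright in the 24 °C crown and were dim after 6 weeks of cold.

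**Figure D1:**
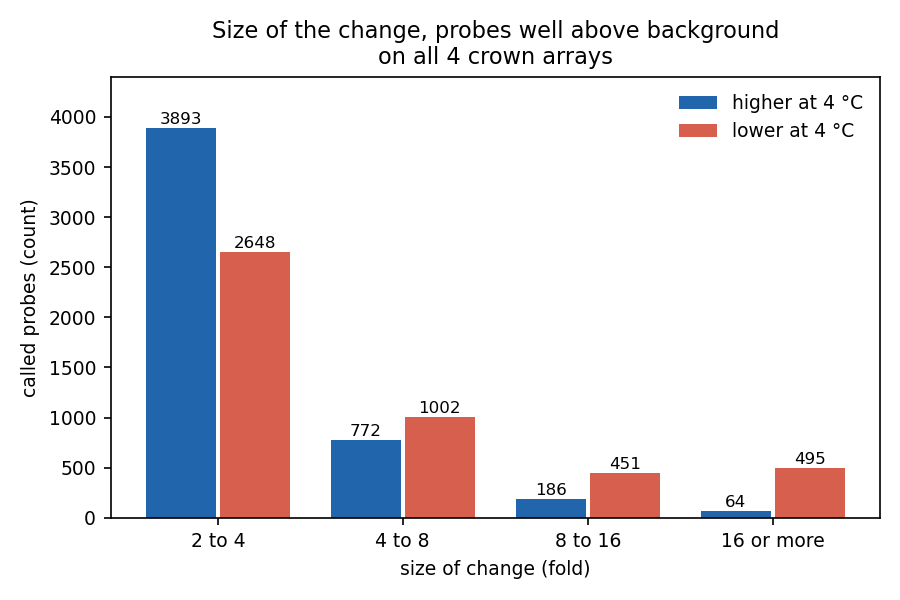
Number of called probes (vertical axis, count) by size of the change (horizontal axis, fold) among the 27570 probes that all 4 crown arrays showed well above background, higher at 4 °C in blue and lower at 4 °C in red. Rises outnumber falls between 2-fold and 4-fold (3893 against 2648) and falls outnumber rises at 16-fold or more (495 against 64).

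The balance of directions depended on the scaling and on the filter on dim probes. The size of the excess of large falls depended on the scaling. Higher probes were 56.1% of the calls made on the 75th percentile. With that scaling they were 51.7% when a probe had to be well above background on all 4 crown arrays, and 41.1% with no filter. They were 50.8% when arrays were scaled to their medians, 57.2% after quantile normalization and 59.1% after cyclic loess, but 87.3% when arrays were scaled to spike-in controls, 38% with a normexp background correction and the 75th percentile, and 50.8% with normexp and quantile normalization. The 7 spike-in transcripts that could be measured on all arrays changed by -1.14 to -0.69 (log2) in the cold crown samples relative to the 75th percentile; scaling to them moved the median change of all tested probes to 1.06, whereas it was -0.19 with normexp and the 75th percentile and 0.10 with normexp and quantile normalization. Among the 27570 probes measured on all 4 crown arrays, falls of 16-fold or more outnumbered rises under each scaling and background correction tried. There were 547 falls and 80 rises after quantile normalization, and 293 and 29 with normexp on the 75th percentile. Raising the signals of all arrays to 1 common floor gave 433 and 64. With scaling to the spike-ins the 2 came close, at 286 falls and 217 rises. Probes detected in only 1 condition are outside this set, 3541 in the cold and 234 at 24 °C. Large rises could thus be left out more often than large falls, which these settings do not test. Over all tested probes, split into 5 groups by level, falls of 16-fold or more outnumbered rises in every group. There were 253 falls and 49 rises in the dimmest group, and 80 and 10 in the brightest. Those counts include signals at background, where a change is only bounded.

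**Figure D2:**
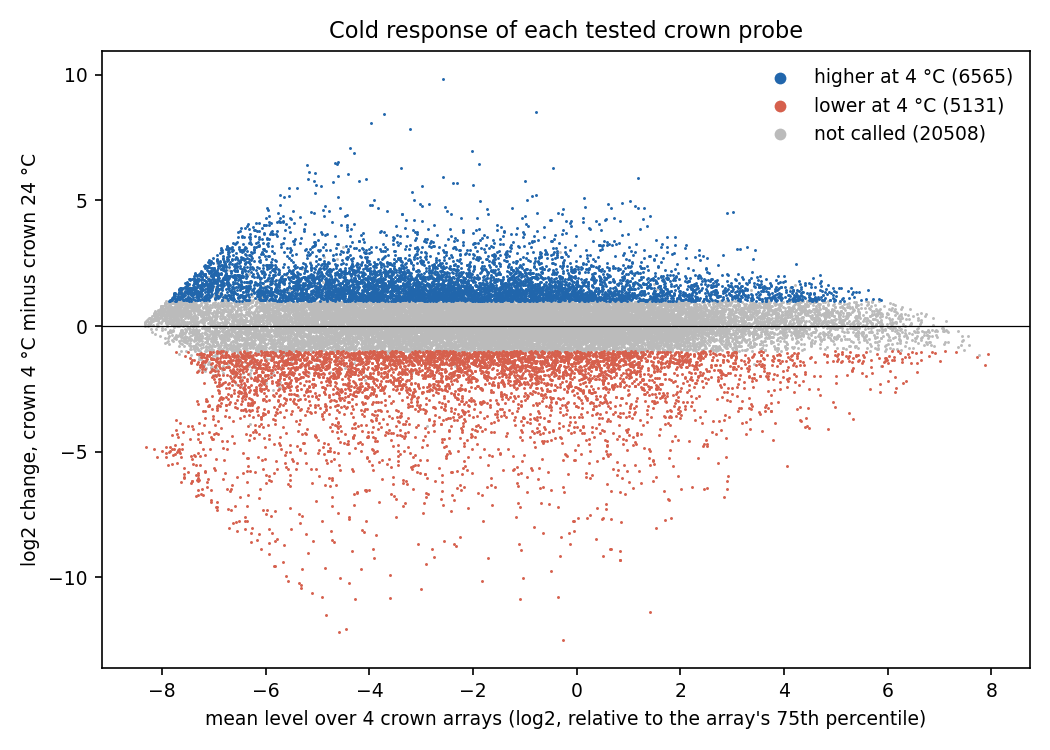
Each point is 1 of the 32204 tested probes, plotted by its mean level over the 4 crown arrays (horizontal axis, log2 relative to the array's 75th percentile) and its change (vertical axis, log2, crown 4 °C minus crown 24 °C), in blue where called higher (6565), in red where called lower (5131) and in grey otherwise. Changes below -5 are many and spread over most of the range of levels, whereas changes above 5 are few.

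The 8 largest rises were of probes that lay below the 75th percentile at 24 °C, most of them not far above the detection limit, and above that percentile in the cold. wheat0130Contig15924 had 3.49 and 3.44 in the cold crowns, against -4.97 and -5.14 at 24 °C, a rise of 8.52 ± 0.36 on the log2 scale (standard error, as after each change below), or 367-fold, with n = 2 arrays per group throughout (adjusted p = 9.18e-06 from limma). Next came the clone probe rwhv3n5n20_426, with 1.5 and 1.43 in the cold against -5.44 and -5.58 at 24 °C, 126-fold higher (change 6.98 ± 0.13, adjusted p = 6.07e-07). Neither of these probes was well above background on both arrays of any leaf group, and in neither were the crown groups close to overlapping. whsh_allContig956 had 4.14 and 4.12 in the cold crowns against -1.71 and -1.78 at 24 °C, which is 58.5-fold higher (change 5.87 ± 0.18, adjusted p = 3.03e-06).

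Their behaviour in leaves was mixed. wheat0130Contig5942 had 1.90 and 1.90 in the cold crowns against -3.94 and -3.82 at 24 °C, 55.0-fold higher (change 5.78 ± 0.064, adjusted p = 1.68e-07), and rose by 5.41 in leaves as well. AB076807, named by a sequence accession, had 2.65 and 2.73 in the cold crowns against -3.61 and -3.56 at 24 °C, 77.5-fold higher (change 6.28 ± 0.16, adjusted p = 1.64e-06), and its change in leaves was 4.33. Both tissues thus showed these rises. MUGEST2003_23lib_Contig25625_1134 went in opposite directions: it had 1.27 and 1.40 in the cold crowns against -5.21 and -5.02 at 24 °C, 87.4-fold higher (change 6.45 ± 0.10, adjusted p = 4.03e-07), while in leaves it changed by -1.69, with means of 1.20 at 4 °C and 2.89 at 24 °C. At 4 °C its level in crown, 1.34, was thus near that in leaf. The remaining 2, rwhf16j07 (60.1-fold, change 5.91) and wheat0130Contig16240 (52.1-fold, change 5.70), lay at 0.33 to 0.64 on all cold crown arrays against -5.58 to -5.14 at 24 °C.

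The 8 largest falls were of probes that lay well above the 75th percentile at 24 °C and far below it in the cold. wheat0130Contig8165 had -6.58 and -6.41 in the cold crowns, against 5.99 and 5.97 at 24 °C, a change of -12.48 ± 0.07 or 5701-fold lower (adjusted p = 1.14e-07). wheat0130Contig8164, next to it in contig number, behaved alike, with -5.68 and -5.81 in the cold against 5.08 and 5.0 at 24 °C, 1765-fold lower (change -10.79 ± 0.09, adjusted p = 1.26e-07). The files do not say whether the 2 contigs share sequence. wheat0130Contig5620 had -4.41 and -4.15 in the cold against 7.10 and 7.12 at 24 °C, 2678-fold lower (change -11.39 ± 0.11, adjusted p = 1.31e-07). All 8 remained well above background on both cold arrays, so these folds rest on measured levels. Their size still depended on the processing. Over the alternative settings tried, the change ran from -12.61 to -9.46 for wheat0130Contig8165, from -11.52 to -10.35 for wheat0130Contig5620 and from -9.74 to -6.11 for wheat0130Contig11239.

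Most of these falls were much larger in crown than in leaf. In leaves wheat0130Contig5620 averaged -0.48 at 4 °C and -0.63 at 24 °C, and the change of 0.14 did not pass the test (adjusted p = 0.28), and rwhr22g15 averaged -0.73 at 4 °C and -1.08 at 24 °C (change 0.35, adjusted p = 0.055), against a crown change of -10.02 ± 0.13. wheat0130Contig11239 fell 715-fold in crown, with -7.63 and -7.68 in the cold against 1.81 and 1.85 at 24 °C, and was higher in cold leaves by 1.65 (adjusted p = 4.3e-06). The clone probe rwhoh20f22 was the one of the 8 that also fell strongly in leaves, with changes of -10.86 in crown and -5.44 in leaf. MUGEST2003_23lib_Contig8773_1216 changed by -10.16 in crown and -2.60 in leaf, and wheat0130Contig6515 by -9.76 and -1.11. The leaf change was -0.33 for wheat0130Contig8165, short of 2-fold, and -1.18 for wheat0130Contig8164.

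**Figure D3:**
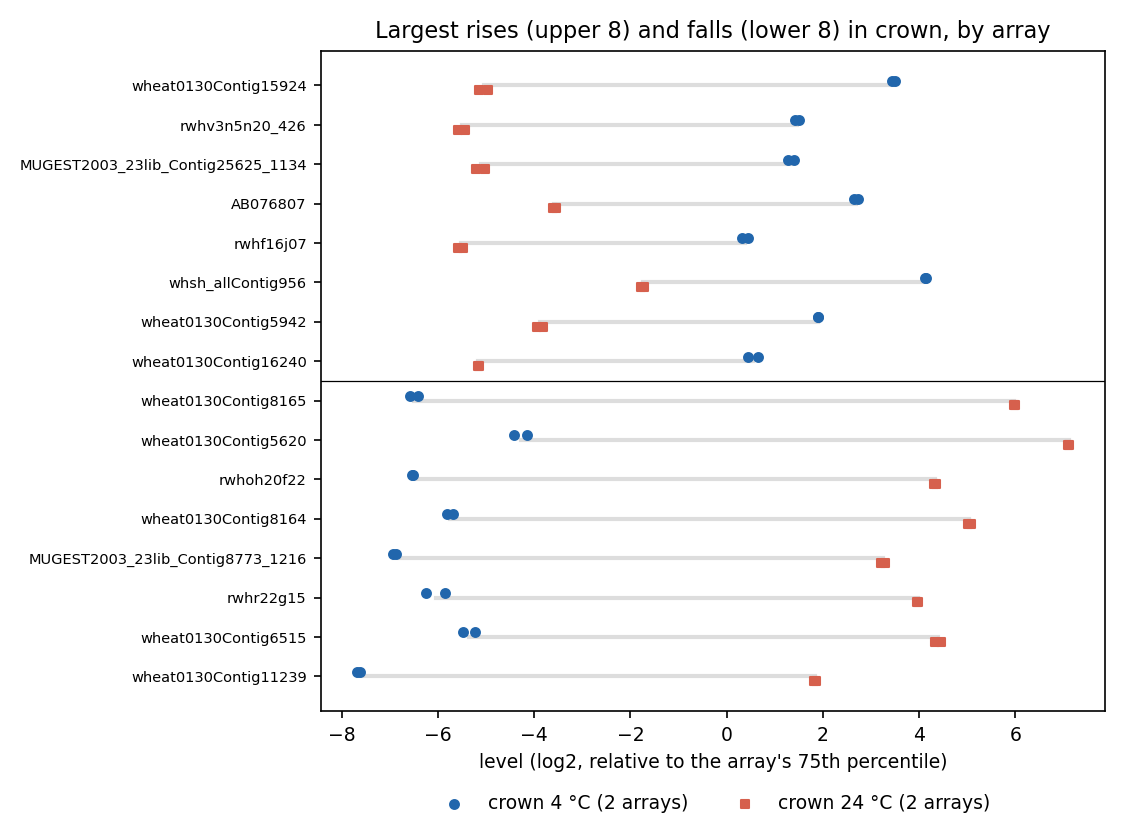
Level of the 8 largest rises (upper rows) and 8 largest falls (lower rows) on each crown array (horizontal axis, log2 relative to the array's 75th percentile), crown 4 °C as blue circles drawn above crown 24 °C as red squares, 2 arrays each. Replicates nearly coincide in every row; the rises start between -5.58 and -1.71 at 24 °C, and the falls end between -7.68 and -4.15 in the cold.

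A further set of probes was detected in 1 condition only. In the cold crowns 3541 probes were well above background on both arrays that were so on neither array at 24 °C, and 234 were detected on both 24 °C arrays and neither cold array. Because the detection limits differed, folds of these probes are bounds, taken against the higher of the limit and the probe's own signal on each array of the dim group. They are bounds under the main processing only. Of the 3541, 1467 were called higher, but 600 of them lay at least 2-fold above that bound; 115 others were called lower although detected only in the cold. These probes passed the filter through 1 group only, so their direction follows largely from how they were picked, and the counts are a description.

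Among the probes switched on, AF207545, named by a sequence accession, had 2.27 and 2.40 in the cold crowns against -7.28 and -7.72 at 24 °C, where it was not well above background, so it was at least 344-fold higher (adjusted p = 3.78e-07). In leaves it was detected at both temperatures and averaged 1.28 at 4 °C and -2.00 at 24 °C. rwhdl6j11 was at least 111-fold higher, with 0.72 and 0.70 in the cold against -6.14 and -8.14 at 24 °C (adjusted p = 8.93e-05), and its 24 °C replicates were far apart. It took the opposite course in leaves, with means of -4.97 at 4 °C and 4.79 at 24 °C. wheat0130Contig16254 (at least 97.1-fold) and wheat0130Contig16233 (at least 71.0-fold) were not well above background on any leaf array. Over the alternative settings tried, the smallest log2 changes were 6.41 for AF207545, 4.63 for rwhdl6j11, 4.63 for wheat0130Contig16254 and 4.25 for wheat0130Contig16233, which are below these bounds.

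Among the probes switched off, wheat0130Contig3974 had -8.19 and -8.26 in the cold crowns against 2.19 and 2.23 at 24 °C, at least 1388-fold lower (adjusted p = 6.0e-07). wheat0130Contig8112 was at least 1200-fold lower, with -9.09 and -8.93 in the cold against 1.81 and 1.79 at 24 °C (adjusted p = 2.42e-06). MUGEST2003_23lib_Contig23241_376 and wheat0130Contig6366 were at least 1026-fold and 968-fold lower and stood at 1.48 to 1.62 on the 24 °C arrays. Over the alternative settings tried, the smallest log2 changes of the 4 were -6.35, -6.03, -5.86 and -6.00, in the order named, which are smaller falls than these bounds. All 4 were thus well expressed in the crown at 24 °C and not detected above background after the cold, while 3 of them were below the filter in leaf and MUGEST2003_23lib_Contig23241_376 was detected there only at 4 °C, at a mean of -6.77.

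No probe that carries a gene symbol was measured to change by 2-fold in crown. Wcor15, which codes for a chloroplast-targeted COR protein of wheat that accumulates in the cold, had -5.98 and -6.05 in the cold crowns, well above background on both arrays, against -8.25 and -8.23 at 24 °C, where it was not. Measured from the 24 °C detection limit it was at least 1.05-fold higher; the fitted change of 2.23 ± 0.19 (adjusted p = 0.000142) was not kept with a common floor (0.03), with normexp and the 75th percentile (-0.42) or with normexp and quantile normalization (0.33). In cold leaves it reached a mean of -0.74. RD29B, whose Arabidopsis namesake responds to abscisic acid and drought, had -5.40 and -5.42 in the cold crowns against -4.88 and -4.76 at 24 °C, a change of -0.59 ± 0.16 (adjusted p = 0.0159) that is short of 2-fold and became 0.31 with scaling to spike-ins. RD29A and cor47, named as 2 Arabidopsis genes that respond to cold and drought, and DREB2A and DREB2B, those of Arabidopsis transcription factors of the dehydration response, were at background on every array, so their crown levels are known only to lie below the limits given above. Of the list of cold and dehydration proteins, Wcor15, cor47, RD29A and RD29B had a probe of that name, of the list of CBF and DREB factors DREB2A and DREB2B had one, and of the flowering list no gene had one.

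Few probes are named by a sequence accession or GI number. Of 41 accession probes 21 were tested, with 5 higher and 4 lower, and of 238 GI probes 152 were tested, with 22 higher (14.5%) and 36 lower (23.7%), against 20.4% and 15.9% of all tested probes. After AB076807 the largest measured rise among them was that of AF255053, with -1.74 and -1.84 in the cold crowns against -5.31 and -5.24 at 24 °C, 11.2-fold higher (change 3.49 ± 0.075, adjusted p = 9.88e-07). It was bright in leaves at either temperature, with means of 3.14 at 4 °C and 3.14 at 24 °C. The largest falls were those of ncbi_gi_32128489_1189, with -3.94 and -3.95 in the cold against 3.82 and 3.79 at 24 °C, 215-fold lower (change -7.75 ± 0.13, adjusted p = 4.49e-07), and of ncbi_gi_4218534_936, with -5.58 and -5.39 in the cold against 1.04 and 1.03 at 24 °C, 91.7-fold lower (change -6.52 ± 0.09, adjusted p = 2.8e-07). In leaves ncbi_gi_32128489_1189 differed little, with means of -1.61 at 4 °C and -1.67 at 24 °C.

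Some of the brightest probes held their level. Among the 200 brightest, the 3 with the smallest change were chosen for it and are given as a description: wheat0130Contig16184 had 6.07 and 6.06 in the cold crowns against 6.11 and 6.02 at 24 °C, wheat0130Contig5841 had 6.12 and 6.55 against 6.34 and 6.30, and MUG002B07R990520 had 6.13 and 6.11 against 6.10 and 6.17. That they held level is relative to the 75th percentile. With scaling to spike-ins they changed by 0.89, 0.91 and 0.88.

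Several clones carry more than 1 probe, which shows how far probes for 1 clone tell the same story. Of these, the largest mean change was that of clone whr9d08, whose 2 probes both fell. rwhr9d08 had -3.74 and -3.89 in the cold crowns against 5.51 and 5.46 at 24 °C, 633-fold lower (change -9.31 ± 0.12, adjusted p = 2.56e-07), and whr9d08 had -5.74 and -6.01 against -0.39 and -0.34, 45.5-fold lower (change -5.51 ± 0.18, adjusted p = 3.95e-06). Clone whyf11h18 gave -8.65 by its rwh probe and -4.22 by its wh probe, and clone whe8j20 -7.77 and -4.92. In all 3 clones both probes fell, and the rwh probe fell further.

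Over all such clones, the wh probe showed the higher change more often. The array holds 2481 clones with a wh and an rwh probe, and in 1121 both were measured on all 4 crown arrays. In 946 of the 1121 (84.4%) the wh probe was the dimmer. Median levels were -3.19 by the wh probe and -1.25 by the rwh probe in the cold, and -3.56 and -1.08 at 24 °C. The median change was 0.34 by the wh probe and -0.06 by the rwh probe, the wh probe gave the higher change in 826 clones (73.7%), and the median gap was 0.55. Both were called higher in 58 clones and both lower in 75, opposite calls were made in 15, and 212 clones were called higher by the wh probe alone against 33 by the rwh probe alone. Across these clones, which are not replicates and share the arrays, the changes correlated at r = 0.571. The gap was 0.17 with normexp and the 75th percentile, 0.35 with normexp and quantile normalization and 0.48 with cyclic loess. In leaves the medians of the same probes ran the other way, at -0.41 by the wh probe and -0.03 by the rwh probe. No filter on leaf detection was applied to these medians, so they can include signals at background in leaf. The leaf detection limits were -6.35 and -6.04 at 24 °C and -7.89 and -8.19 in the cold. The files do not explain the prefix, and which of the probes follows the transcript was not tested.

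**Figure D4:**
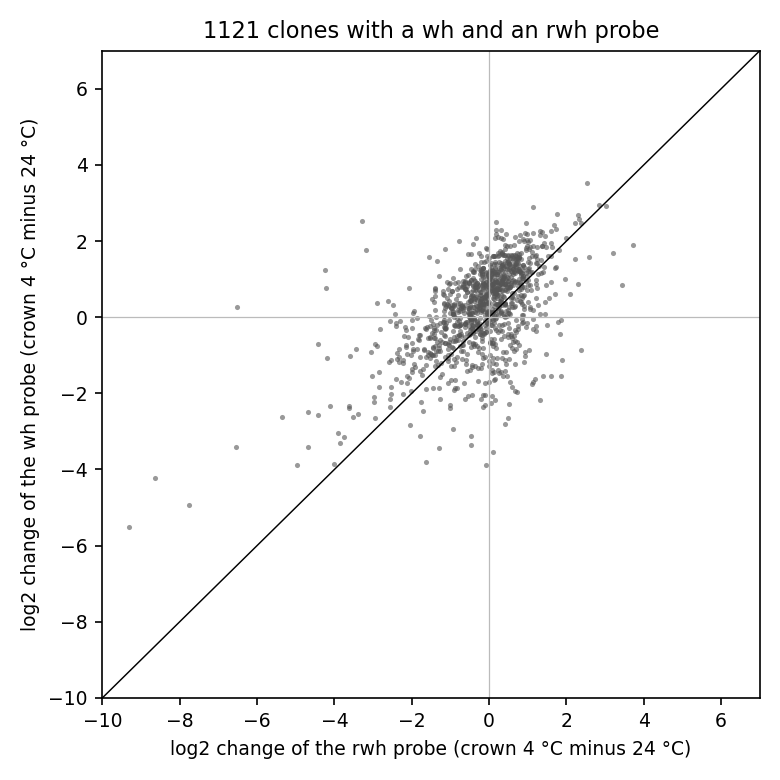
Change of the wh probe (vertical axis) against that of the rwh probe of the same clone (horizontal axis), both log2, crown 4 °C minus crown 24 °C, for the 1121 clones with both probes measured on all 4 crown arrays. The black line marks equal changes; 826 points lie above it.

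The same split ran through the name families. Of the 6057 tested clone probes whose names begin with wh, 28.4% were higher and 14% lower. Of the 3989 that begin with rwh, 12.2% were higher and 19.2% lower, against 20.4% and 15.9% of all. These shares include probes not well above background on all 4 crown arrays, whose direction can follow from the filter. Among probes measured on all 4, 23.9% of 4349 wh clone probes were higher and 16.3% lower. For 3442 rwh clone probes the shares were 10.4% and 19.7%, against 17.8% and 16.7% of all. The wh excess of higher calls thus remained but was smaller, and the wh share of lower calls was near that of all. Here too the wh probes were the dimmer, with a median cold level over tested probes of -3.89 against -2.05 for rwh. In 26 of the 27 prefixes with at least 50 tested probes of each kind the wh probes had the larger share of higher calls. Within the wh families the share higher ran from 11.5% to 39.7%, with whdl at the top (102 of 257 probes) and whsh_all contigs at 33.6% (303 of 901). At the other end stood whdp, of which 55 of 113 probes (48.7%) were lower; over its 72 probes measured on all 4 crown arrays 40.3% were lower and the median change was -0.32. MUG clones were seldom lower, with 108 of 1264 (8.54%) lower and 326 (25.8%) higher. The large contig families lay closer to the whole: 19.0% higher and 15.8% lower among 12534 wheat0130 contigs, and 16.4% and 19.1% among 6015 MUGEST2003_23lib contigs. These shares are descriptions of name families, with no test; the tissue or library behind each prefix is not given in the files.

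**Figure D5:**
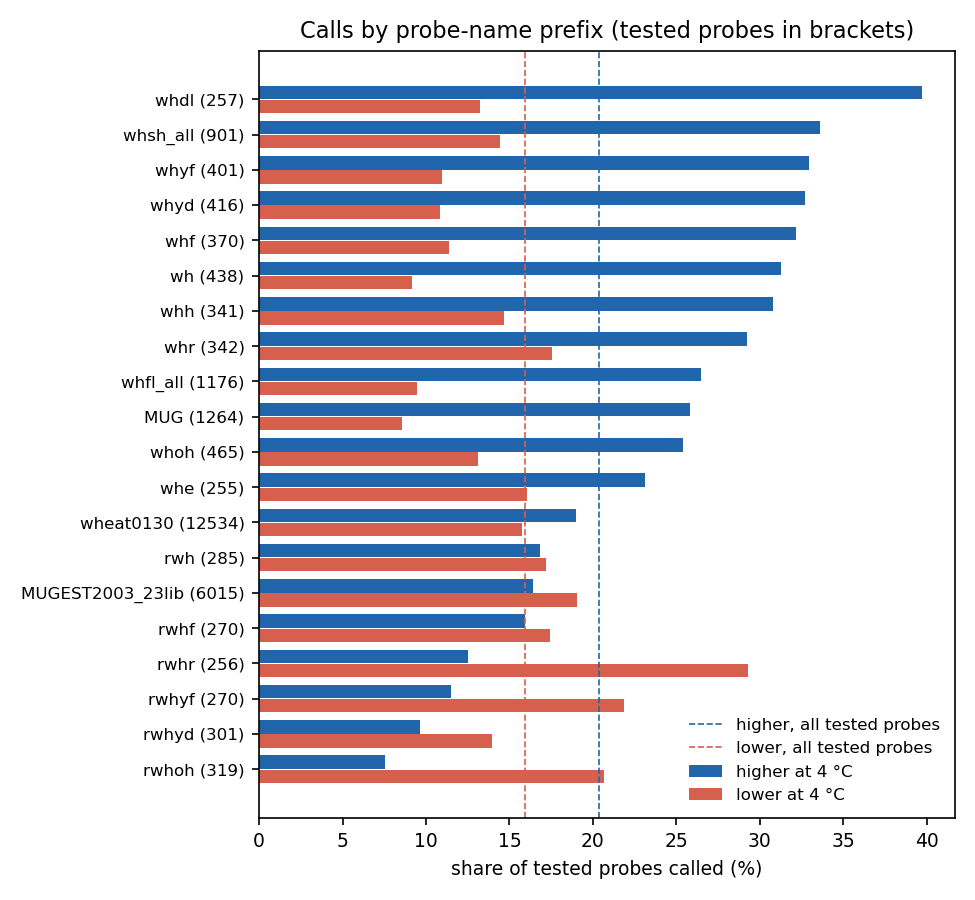
Share of tested probes called higher (blue, upper bar) and lower (red, lower bar) at 4 °C (horizontal axis, %) for each name prefix with 250 or more tested probes, with their number in brackets; dashed lines give the shares over all tested probes (20.4% higher, 15.9% lower). Apart from the wheat0130 contigs, the prefixes that begin with wh lie above the blue line, and those that begin with rwh lie below it. The shares include probes not well above background on every crown array, whose direction can follow from the filter.

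The crown response was tested against the leaf response by the interaction term of the same fit. Of 32796 probes, 9624 (29.3%) had a crown change minus leaf change above 0 by at least 2-fold and past the test, and 5382 (16.4%) one below 0; the split was nearly even, at 7342 and 7212, with scaling to the median. Leaf changes were not used to pick the strong crown changes. The spread behind each call was fitted over all 8 arrays, however, so crown and leaf calls are not independent. With that limit, the leaf calls of those probes can be read beside the leaf background of 12.9% higher and 20.7% lower among 29604 tested. Of the 495 probes that fell by 16-fold or more in crown, 458 were tested in leaf, and 231 (50.4%) were lower and 44 (9.61%) higher there. Of the 64 that rose by as much, 58 were tested in leaf, and 20 (34.5%) were higher and 26 (44.8%) lower. The 186 rises of 8-fold to 16-fold were in leaf more often lower (67 of 163, 41.1%) than higher (25, 15.3%). By these shares, which have no test of their own, strong crown falls were lower in leaf more often than probes at large. Crown rises of 8-fold or more were also lower in leaf more often than probes at large. Rises of 16-fold or more were higher in leaf more often as well, whereas for rises of 8-fold to 16-fold that share (15.3%) was near the background (12.9%).

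Temperature, plant age and scan day cannot be told apart in crown, since each crown group was hybridised on 1 slide of its own, scanned on its own day and read with another software version (10.5.1.1 for the cold arrays, 10.7.3.1 for the 24 °C arrays). The crown and leaf comparisons also differ in weeks at 4 °C, and the 24 °C leaf arrays alone were read on another scanner, with software 9.5.3.1 and on 2 slides, a difference that every leaf change and every crown-minus-leaf difference carries.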

How the data were processed

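Crown RNA was read on one-colour Agilent arrays (Cy3). Per the file headers, the authors' scanner files hold intensity values background-subtracted within each array by Agilent Feature Extraction (versions 9.5.3.1, 10.5.1.1 and 10.7.3.1 over the series; the submitters' processing notes name 9.5), and, per the file headers, flags of kind other, 0 or 1 per spot. The authors also deposited a table of scaled intensity, whose columns show only the group and whose scaling is not stated; it was used as an alternative.

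Log2 of the processed signal minus the array's 75th percentile was used, over 37826 probes, with 1417 control spots set aside. Group means over all 8 arrays were fitted with limma 3.58.1 in R 4.3.3 on the 32796 probes that had both arrays of any group well above background (4 residual and 1.55 prior degrees of freedom). A comparison tested the probes that had both arrays of any of its groups well above background, with Benjamini-Hochberg adjustment over them; a call needed an adjusted p under 0.05 and 2-fold. An exact permutation test of 2 arrays against 2 cannot go below 0.333 and was not used. The p-values measure the spread between arrays of a group, whose number limits the precision. Except for leaf at 24 °C, both arrays of a group shared 1 slide, and each group was scanned on 1 day. This spread therefore leaves out variation between scan days and most of that between slides. The fit was tested on simulated data. The files hold no mean spot signal, so the normexp correction (offset 50) used the median signal. Other alternatives were quantile, median, spike-in and cyclic loess scaling, a common floor, the authors' table, other filters on dim probes, crown arrays alone, replicate number or slide as a block, no fold threshold, treat against 1.5-fold, an intensity trend, outlier spots set to missing, 1 probe per clone or contig, and leaving out each array.

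The comparison, the gene lists and the probes named were chosen with earlier results of these data known. Named were all gene-symbol probes, the 8 largest rises and falls measured on all 4 crown arrays, the 4 largest bounds each of probes switched on and off, the 3 steadiest of the 200 brightest, the 3 clones or contigs with several probes and the largest mean change, and the 2 largest rises and falls among accession and GI probes. The reference gene table held none of the gene symbols or accessions. GI numbers were not looked up in it. The clone pairs, name families and large changes by setting were described after the values were seen. matplotlib 3.10.9 drew the figures. Other control spots and probe sequences were not used here.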

Additional observations from a re-analysis of the deposited data

Results flagged for a closer look

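The crown and leaf responses to cold differed by the interaction term in limma for 9624 probes with a higher and 5382 with a lower change in crown. The values below are crown change minus leaf change on the log2 scale, each past that test, for the named probes. Weeks at 4 °C, plant age and scan day differ with the tissue and cannot be told apart from it, nor can the scanner and software version (9.5.3.1), which were the 24 °C leaf arrays' own.

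Among the rises in crown, the difference was 8.14 for MUGEST2003_23lib_Contig25625_1134, 6.71 for whsh_allContig956, 4.25 for rwhf16j07, 3.48 for AF255053 and 1.95 for AB076807. For AF207545 it was 6.56 and for rwhdl6j11 17.61; both were not well above background in crown at 24 °C, so these are no measured differences. Nor is the 5.07 of wheat0130Contig16240, which was not well above background in leaf at 24 °C. Among the falls in crown, it was -12.15 for wheat0130Contig8165, -11.53 for wheat0130Contig5620, -11.14 for wheat0130Contig11239, -10.37 for rwhr22g15, -9.60 for wheat0130Contig8164, -8.65 for wheat0130Contig6515, -7.55 for MUGEST2003_23lib_Contig8773_1216 and -5.42 for rwhoh20f22. It was -7.80 for ncbi_gi_32128489_1189 and -5.49 for ncbi_gi_4218534_936.

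For the clones with a pair of probes it was -4.07 by whr9d08, -5.45 by rwhr9d08, -2.99 by whe8j20 and -4.60 by rwhe8j20. By rwhyf11h18 it was -10.32, no measured difference, as the probe was at background in 24 °C leaf. For MUGEST2003_23lib_Contig23241_376, at background in cold crown and in 24 °C leaf, it was -12.37 by fitted signals. Wcor15, at background on all 24 °C arrays, had -4.78, also no measured difference, and RD29B had 1.32, its leaf change being the larger fall.

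A signal also appeared in control spots outside the comparison. The eQC-40 control has 10 spots per array, with medians of -4.94 and -5.04 on the cold crown arrays, with 10 of 10 spots well above background on each, and -7.78 and -7.96 on the 24 °C crown arrays, with 1 and 0 of 10, a difference of 2.88. On the leaf arrays it ran the other way, with medians of -0.57 and 0.12 at 24 °C and -4.35 and -4.53 in the cold. The files do not explain this control, and its part in any result was not tested.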

How the results depend on the processing

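Under the alternatives, the crown calls moved most with the scaling, the background correction, the filter on dim probes and the call rule. Scaling to spike-ins gave 16815 higher and 2449 lower, normexp with the 75th percentile 3148 higher, and normexp with quantile normalization 3664 higher. No filter on dim probes gave 9408 lower, and no fold threshold 13970 higher and 10307 lower. For crown change minus leaf change, normexp with quantile normalization gave 4826 higher, probes measured on all 8 arrays 6301 higher, and no fold threshold 14714 higher and 9538 lower; higher probes were 64.1% of the main calls, 50.4% scaled to the median, 53.3% after quantile normalization and 78.4% with spike-ins. Leaving out 1 array at a time gave 6176 to 6541 higher and 4917 to 5316 lower in crown, and 8995 to 9859 higher and 5230 to 5535 lower for the difference. RD29B reversed to 0.31 with spike-ins and Wcor15 to -0.42 with normexp and the 75th percentile. Every other called probe named kept its direction under each alternative, though the size of its change varied. The cause of these changes was not tested. Replicate numbers did not pair the samples: the replicate differences of the 2 crown groups correlated across probes at r = -0.026, and with replicate number as a block 6549 probes were higher and 5118 lower in crown, and 9570 and 5363 for the difference. Slide as a random block does not separate slide from group. Depth here is signal over background: below -6.09 at 24 °C a level is only bounded.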
